A study of Homo sapiens with 12 samples.

Results

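These results concern stretches of the human genome that came down with both SLEAR probe sets and not with control probes, but in which each probe set had its strongest signal at a different place. Of 357901 regions obtained by merging the peaks of 9 libraries, 2743 (0.766%) had this form. They were chosen by measured values. A region needed a peak in at least 5 of the 6 odd and even lists, no peak in any lacZ list, and median odd and even summits more than 100 bases apart. The summit of a peak is the base with the highest coverage, and each list gave the summit of its peak with the highest coverage (pileup) in the region. The presence of peaks and the distance between the sets therefore describe the choice and are not findings.

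SLEAR is a long non-coding RNA that the series title connects with systemic lupus erythematosus and apoptosis. Chromatin isolation by RNA purification (ChIRP) was done on Jurkat cells (a leukaemia-derived T-cell line) that stably expressed SLEAR; every group carried this expression, and cells without it were not analysed here. The groups used were lacZ, odd and even probes, 3 libraries each; 3 input samples of the 12 named in the labels were not analysed here. No label says whether the libraries came from separate cultures, so p-values measure the spread between libraries, which may be technical. Peak lists hold no expression values, so the cell line was not checked against its markers.

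In ChIRP, biotinylated oligonucleotides pair with an RNA in crosslinked chromatin, and the DNA held near that RNA is pulled down and sequenced. Oligonucleotides along the RNA are numbered in order and split into an odd and an even pool, so that each pool binds other stretches of the same transcript. DNA bound through the RNA is recovered by both pools, whereas DNA that pairs directly with an oligonucleotide is recovered by 1 pool. Probes against the bacterial lacZ transcript, which human cells do not make, give the level of capture without the RNA.

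The libraries differed in the number of peaks, and so in how many of the 2743 regions they could contain. On chromosomes 1 to 22 and X the odd lists held 66336, 105957 and 117145 peaks and the even lists 94119, 90179 and 124191. The read depth is unknown. A peak lay in 2185, 2681 and 2690 of the regions in odd libraries 1, 2 and 3, and in 2584, 2538 and 2683 in even libraries 1, 2 and 3. Odd library 1, the shortest of the 6 lists, lacked a peak in 558 regions, and the next, even library 2, in 205. All 6 lists had a peak in 1646 regions (60.01%), and 5 lists in 1097.

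Regions with displaced summits made up most of the shared regions. Of 4042 regions that met the rule on presence, 67.9% had summits more than 100 bases apart and 1299 had summits within 100 bases. The same rule was applied to the control probes put in the place of 1 probe set. Regions shared by lacZ and odd probes without even peaks numbered 1494, of which 1204 (80.6%) had displaced summits. Those shared by lacZ and even probes without odd peaks numbered 1571, of which 1283 (81.7%) had displaced summits. The control pairings thus held a larger share of displaced summits than the odd and even pairing, where separations under 25 bases alone made up 12.05% of the shared regions, against 5.22% for lacZ with odd and 5.09% for lacZ with even probes. These 3 shares rest on overlapping sets of libraries, and their difference was not tested. The lacZ lists were also uneven. In the displaced lacZ and odd regions, lacZ libraries 1 and 2 both had a peak in 1165. For libraries 1 and 3 the count was 771, and for libraries 2 and 3 it was 808. The counts of 4042, 1494 and 1571 regions are therefore not like for like.

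**Figure D1:**
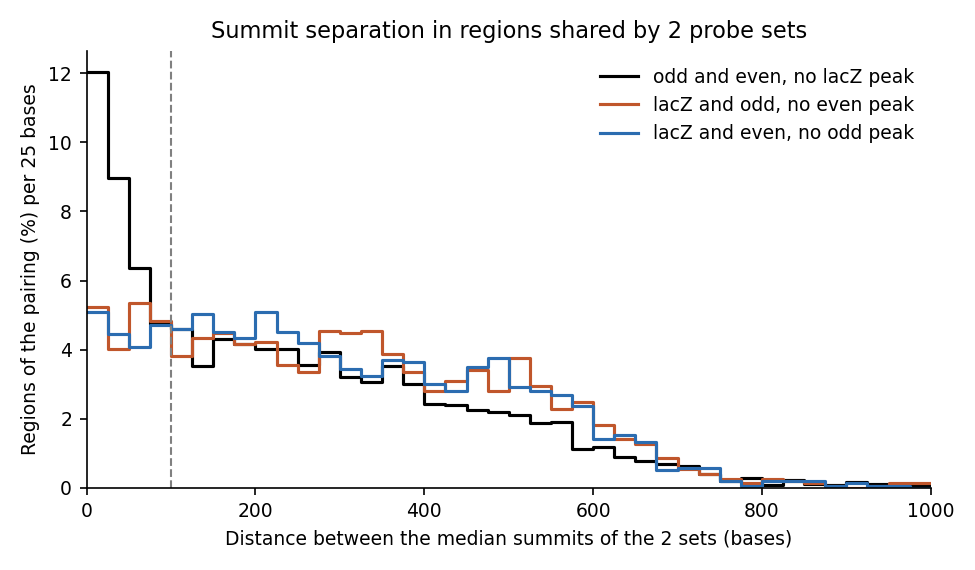
Share of shared regions (%) per 25 bases of distance between the median summits of the 2 sets, up to 1000 bases, for odd and even probes (black, 4042 regions), lacZ and odd probes (orange, 1494) and lacZ and even probes (blue, 1571). The dashed line marks 100 bases, to the right of which lie the 2743 regions described here. Of these, 24 with separations over 1000 bases fall beyond the axis. The odd and even curve rises towards 0 bases and the control curves do not rise in that way.

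The separation had no single preferred value. Its median was 315 bases, with an interquartile range from 203 to 462 bases and a largest value of 1826. It lay over 100 and up to 200 bases in 671 regions, over 200 and up to 300 in 629, over 300 and up to 400 in 519 and over 400 and up to 500 in 375. Another 469 regions had summits over 500 and up to 750 bases apart, 56 over 750 and up to 1000, and 24 over 1000. In the control pairings the displaced summits had medians of 345 bases for lacZ with odd and 334 bases for lacZ with even probes. The regions themselves had a median length of 898 bases, from 316 to 3371.

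Libraries of 1 probe set placed their summits close together, whereas the larger distance between the sets was required by the rule. The odd summits of a region spanned a median of 39 bases and the even summits 42 bases; in the 1097 regions with 5 lists, 1 of the sets had only 2 summits. The range stayed at or below 106 bases in 95% of regions for odd and at or below 109 bases for even lists. Any pair of odd lists placed their summits more than 100 bases apart in 2.78% to 3.52% of the regions, and even lists in 3.15% to 3.74%. Across an odd and an even list the share was 96.3% to 97.3%, which the rule fixes almost by itself. Close summits within a set were not particular to these regions. Shared odd and even regions with summits within 100 bases had median spans of 38 bases for odd and 41 for even lists. In the displaced control pairings the median spans of a set were 40 to 42 bases.

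The following counts use the summits that chose the regions, so they describe the spread of single libraries and give no separate support for the displacement. In 2696 regions (98.3%) the odd summits and the even summits did not overlap in range. Among the 1646 regions with a peak in all 6 lists, the 3 pairs of odd and even lists with the same number were all more than 100 bases apart in 1524 (92.6%), and all 3 had the odd summit on the same side in 1626 (98.8%). In 300 regions (10.9%), by contrast, the summits of at least 1 set ranged over more than 100 bases. In 93 regions the range of a set reached or passed the separation itself, so there the displacement was no larger than the spread between libraries.

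**Figure D2:**
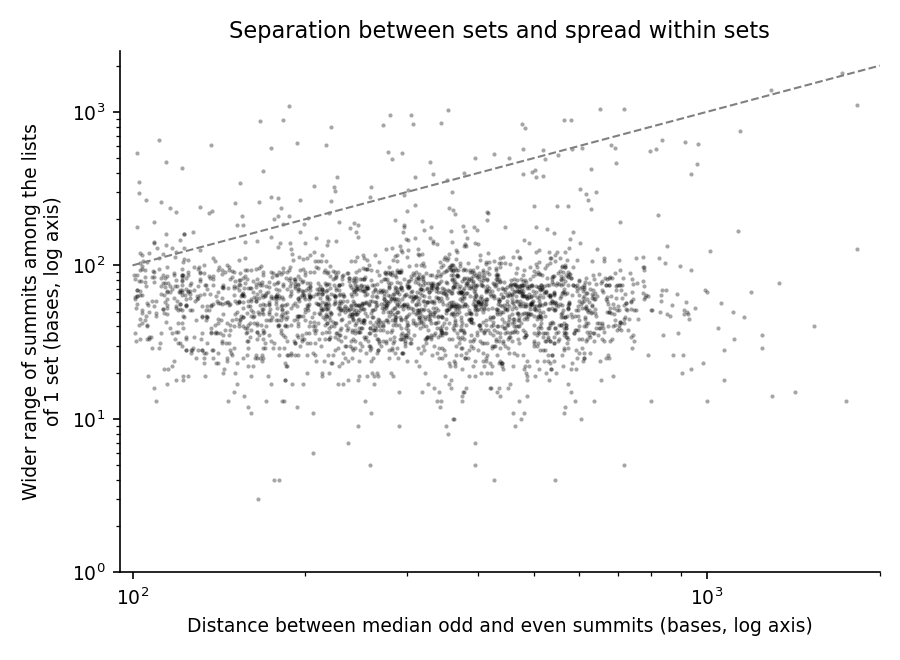
Each point is 1 of the 2743 regions; the x axis gives the distance between the median odd and even summits and the y axis the wider of the odd and even ranges of summits among libraries, both in bases on log axes. The dashed line marks equality: 2650 regions lie below it, with a range narrower than their separation.

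Neither probe set took a fixed side. The odd summit had the lower coordinate in 1356 regions (49.4%) and the even summit in 1387. In the 3 same-numbered pairs of lists the share with the odd summit lower was 49.3% ± 0.0454 (SD, n = 3 pairs). The pairs cover largely the same regions, so this SD does not measure the uncertainty of the share. Coordinates run in 1 direction along each chromosome, so a share near 50% says nothing about the direction of a transcript there.

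The strongest odd and even peaks overlapped in most regions. In a same-numbered pair of lists they shared a median of 166.5, 164 and 184 bases for numbers 1, 2 and 3, and shared no base in 16.2% ± 3.47 of the regions (SD, n = 3 pairs). In 1867 regions (68.1%) every pair of an odd and an even list shared at least 1 base, and in 1 region none did.

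The regions were sorted by whether a median summit lay inside a strongest peak of the other set in at least 1 list. In 1121 regions (40.9%) neither summit did, and their median separation was 468 bases with a median of 31.5 shared bases. In 841 regions exactly 1 summit did, the odd summit in 463 and the even summit in 378, with a median separation of 281 bases. In the remaining 781 regions (28.5%) both summits lay inside the other set's peak, with a median separation of 179 bases over 317 shared bases. The control pairings had neither summit inside in 47.3% of the lacZ and odd regions and 44.4% of the lacZ and even regions.

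A separately listed weaker peak at the other set's summit was rare. Only 91 regions (3.32%) had more than 1 peak of the same list. In 16 regions (0.583%) such a weaker peak had its summit within 100 bases of the other set's median summit. Each listed peak gave 1 summit, so a second maximum within a broad peak was not counted. More than 1 peak of the same list was also rare in other parts. The share was 1.08% in odd and even regions with summits within 100 bases. It was 2.57% in displaced lacZ and odd regions and 2.81% in displaced lacZ and even regions.

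The strength of the peaks was described by the fold enrichment, the authors' ratio of coverage at the summit to a background. In the regions the median fold was 11.5, 18.3 and 15.2 in odd libraries 1, 2 and 3. All listed peaks on the chromosomes used had medians of 10.2, 12.3 and 9.96 there. In even libraries 1, 2 and 3 the regions had 13.7, 13.5 and 16.5, where the lists had 10.7, 11.04 and 10.5. The middle 50% of the regions ran from 7.45 to 20.9 in odd library 1 and from 10.6 to 36.3 in odd library 2. Folds were thus somewhat above the middle of each list, with wide spread. The highest were 146, 332 and 239 in the odd and 240, 434 and 222 in the even libraries. The regions were kept for peaks in most odd and even lists, and each list gave its peak with the highest coverage. Whether this choice alone places folds above the middle of a list was not tested.

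Because the lists differ in scale, each fold was also expressed as a percentile within its own list. The median percentile over the regions was 57.0, 66.4 and 68.4 in odd libraries and 60.9, 59.1 and 68.7 in even libraries. The 3 odd and 3 even values overlapped. Their means were 63.9 ± 6.06 and 62.9 ± 5.11 (SD, n = 3), a difference of 1.01 percentile points (exact permutation test, two-sided, p = 1, where 3 against 3 cannot go below 0.1; adjusted p = 1 over 4 tests). For comparison, regions were taken under a looser requirement, a peak in at least 2 lists of 1 set and in no list of any other. They had median percentiles of 56.5 ± 5.06 in odd and 56.6 ± 4.84 in even libraries. They also had shorter peaks, with medians of 405 ± 8.08 bases in odd and 437 ± 18 in even libraries, against 480.5 ± 22.2 and 513 ± 23.1 in the regions with displaced summits. Among peaks of like length, the median percentile with displaced summits was 52.8 ± 2.91 in odd and 51.5 ± 3.02 in even libraries (SD, n = 3). Here 50 is the middle of the listed peaks of like length. The looser requirement asks for fewer lists, so the comparison with it cannot separate displaced summits from the number of lists required.

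Regions with displaced summits were compared with the 1299 shared regions whose summits lay within 100 bases, to see whether the 2 kinds differ in strength. The median percentile with coinciding summits was 77.3, 72.9 and 73.8 in odd libraries and 57.9, 59.98 and 66.3 in even libraries. The difference, displaced minus coinciding, was −20.3, −6.53 and −5.42 points in the odd libraries, all below 0. In the even libraries it was 3.002, −0.897 and 2.37 points, on both sides of 0. Over the 6 libraries it averaged −4.63 points and was negative in 4 of 6 (exact sign-flip permutation test, two-sided, p = 0.219; adjusted p = 0.292 over 4 tests). Odd library 1 carried much of this average, which was −1.50 points without it (exact sign-flip permutation p = 0.438). The average was −8.19 among peaks of like length (exact sign-flip permutation p = 0.0625). It was 0.931 with a threshold of 200 bases (exact sign-flip permutation p = 0.625). That threshold counts regions with separations over 100 and up to 200 bases as coinciding, so it compares other sets of regions. Neither the size nor the direction of the average was settled. The difference between the odd and the even libraries, −12.2 points, had an exact permutation p of 0.1, the smallest that 3 against 3 allows, and an adjusted p of 0.2. This difference was not among the planned tests, and no alternatives were run for it.

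The strongest peaks were less frequent in the displaced than in the coinciding odd and even regions. Peaks among the highest 10% of their list by fold made up 13.2%, 17.1% and 18.3% of the displaced regions in odd libraries and 15.8%, 14.8% and 18.0% in even libraries. With coinciding summits the shares were 41.2%, 35.5% and 36.2% in odd and 22.1%, 21.96% and 22.9% in even libraries. The share was lower in 6 of 6 libraries, by 13.8 percentage points on average (exact sign-flip permutation test, two-sided; p = 0.031 is the least 6 libraries can give; adjusted p = 0.125 over 4 tests). This comparison was added after its values had been seen, and it does not pass the adjustment. With a threshold of 200 bases the average difference in share was −7.42 points. Libraries of 1 set share most of their regions, so they are not independent draws of regions. With libraries paired by number, the exact sign-flip permutation p was 0.25, the smallest that such pairing allows.

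**Figure D3:**
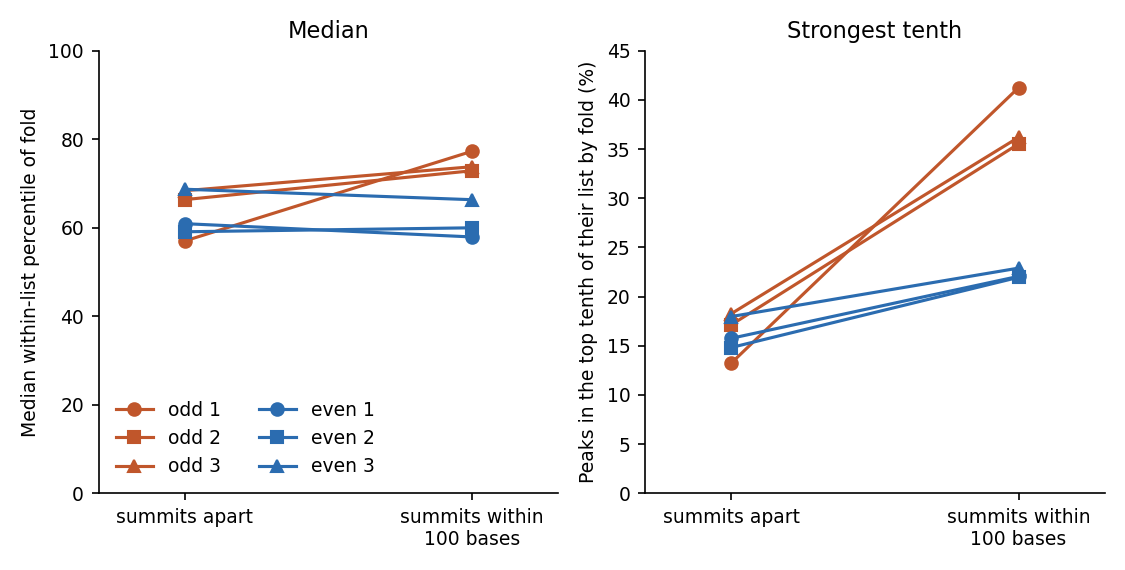
Left, median within-list percentile of fold; right, percentage of peaks in the highest 10% of their list by fold; each line is 1 library (orange odd, blue even; circle, square and triangle for libraries 1, 2 and 3) and joins the regions with displaced summits to those with summits within 100 bases. The median was lower with displaced summits in the odd libraries and differed by 3.002 points at most in the even libraries, while the share of strong peaks was lower with displaced summits in all 6, reaching 18.3% at most against at least 21.96%.

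How strong a region was with 1 probe set said little about its strength with the other. Over the 1646 regions with a peak in all 6 lists, the rank correlation of fold was 0.868 to 0.872 between odd lists and 0.858 to 0.863 between even lists (Spearman's rho, 3 pairs each). Between an odd and an even list it was −0.0384 to 0.0323 (9 pairs). These are descriptions across regions, which are not replicates; lists of 1 set share their oligonucleotides, and the sets share the cells. The displaced regions of lacZ with odd probes gave −0.0121 to 0.0553 between sets and those of lacZ with even probes −0.0806 to −0.0149. Where odd and even summits coincided, over 688 regions, the values between sets were −0.407 to −0.148, so strong odd peaks there tended to meet weak even peaks.

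The sets often differed in strength, about as often as in the control pairings. The mean odd and mean even percentile of a displaced region differed by more than 25 points in 1476 regions (53.8%), with the odd side higher in 734 and the even side in 742. The share was 53.2% for displaced lacZ and odd regions, 52.4% for displaced lacZ and even regions and 69.9% for coinciding odd and even regions. Both sets had a mean percentile of at least 90 in 46 regions (1.68%), 1 set alone in 672 (24.5%) and neither in 2025. Both sets were that strong in 1.25% of the displaced lacZ and odd regions, 1.40% of the displaced lacZ and even regions and 1.92% of the coinciding odd and even regions. For 1 set alone the shares were 23.3%, 22.9% and 49.9% in the same order. In the coinciding regions of lacZ with odd and of lacZ with even probes, 1 set alone was that strong in 15.9% and 20.1%. These shares were not tested against each other.

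**Figure D4:**
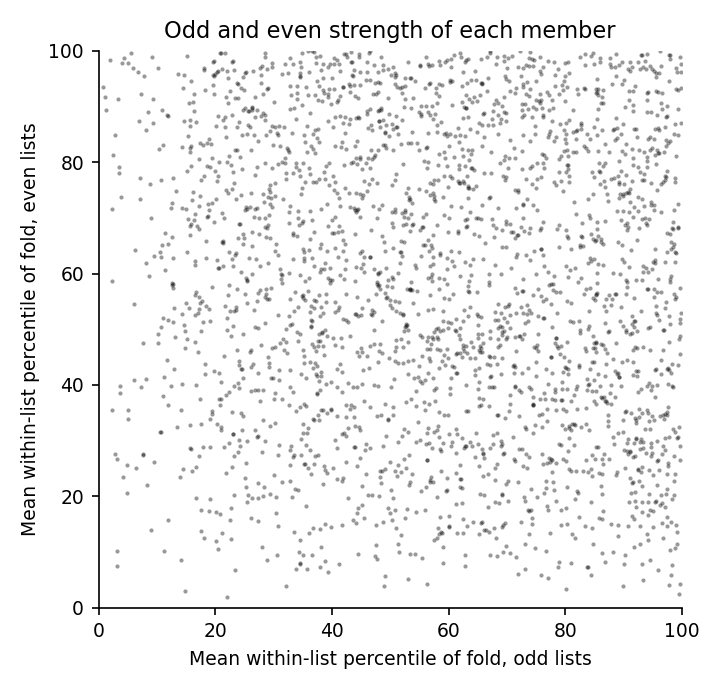
Each point is 1 of the 2743 regions, by its mean within-list percentile of fold over the odd lists (x axis) and over the even lists (y axis). Points fill the square without a diagonal band, and 46 of them lie at or above 90 on both axes.

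The strongest displaced regions were examined one by one; positions are on hg19. Ranked by mean fold percentile, the top 20 with a peak in all 6 lists lay on 10 chromosomes, 4 of them on chromosome 3 and 3 each on chromosomes 1 and 20. Their separations ran from 106 to 993 bases with a median of 541, and their lengths from 945 to 2047. The odd side had the higher percentile in 10 and the even side in 10, and the odd summit had the lower coordinate in 10.

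The first of them, at chr3:113698402-113700448, consisted of 2 neighbouring peaks. Its fold was 107, 283 and 147 in odd libraries 1, 2 and 3 and 85.6, 139.9 and 144 in even libraries 1, 2 and 3. The odd summits lay at 113698977, 113698951 and 113698976 and the even summits at 113699907, 113699969 and 113699976. The sets stood 993 bases apart while each varied by at most 69 bases, and most pairs of their peaks shared no base.

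The second, at chr8:143130535-143131890, had the steadiest summits of the 20. The odd summits were at 143131374, 143131375 and 143131375 and the even summits at 143130952, 143130949 and 143130948. The fold was 137, 231 and 189 in odd and 69.6, 98.6 and 83.4 in even libraries. The separation of 426 bases compares with ranges of 1 and 4 bases within the sets, and a median of 810 bases was covered by the peaks of both.

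On chromosome 10, chr10:115869983-115871251 was strong with both sets and more compact. Its fold was 58.2, 179 and 72.5 in odd and 117, 185 and 109 in even libraries. The median summits were 292 bases apart, the ranges within the sets 77 and 55 bases, and each set's summit lay inside the other set's peak. The fold of odd library 2 exceeded that of the other odd libraries in each of the 3 regions just described.

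Broad peaks with nearby summits were seen at chr15:20974831-20976334. Peak lengths there were 1423, 1453 and 1465 bases in odd and 1310, 1417 and 1139 bases in even libraries. The fold was 135, 263 and 239 in odd and 53.1, 68.0 and 92.4 in even libraries. The summits were 112 bases apart, close to the threshold, against ranges of 41 and 83 bases, and a median of 1287 bases was shared.

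At chr3:119923952-119925620 the odd set was the stronger and its summits lay at the higher coordinates. The fold was 146, 319.5 and 177 in odd and 56.9, 38.3 and 59.1 in even libraries. The separation was 833 bases. The even peak was 1340 bases long in library 1 and 1336 in library 3, and reached across the odd summit, but 568 bases in library 2.

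The even set was the stronger at chr12:120349211-120350669 and chr1:164275176-164276621. In the region on chromosome 12 the fold was 41.1, 96.4 and 90.6 in odd and 186, 249.8 and 222 in even libraries, with no overlap of the sets and summits 233 bases apart. In that on chromosome 1 it was 36.7, 65.2 and 66.8 in odd and 127, 181 and 132 in even libraries, with summits 675 bases apart. Among the rest of the 20, separations were 438 bases at chr10:67299836-67301076, 697 bases at chr9:94799410-94800883, 595 bases at chr6:147201027-147202780, 537 bases at chr2:3990798-3992205 and 541 bases at chr20:6358336-6359664.

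**Figure D5:**
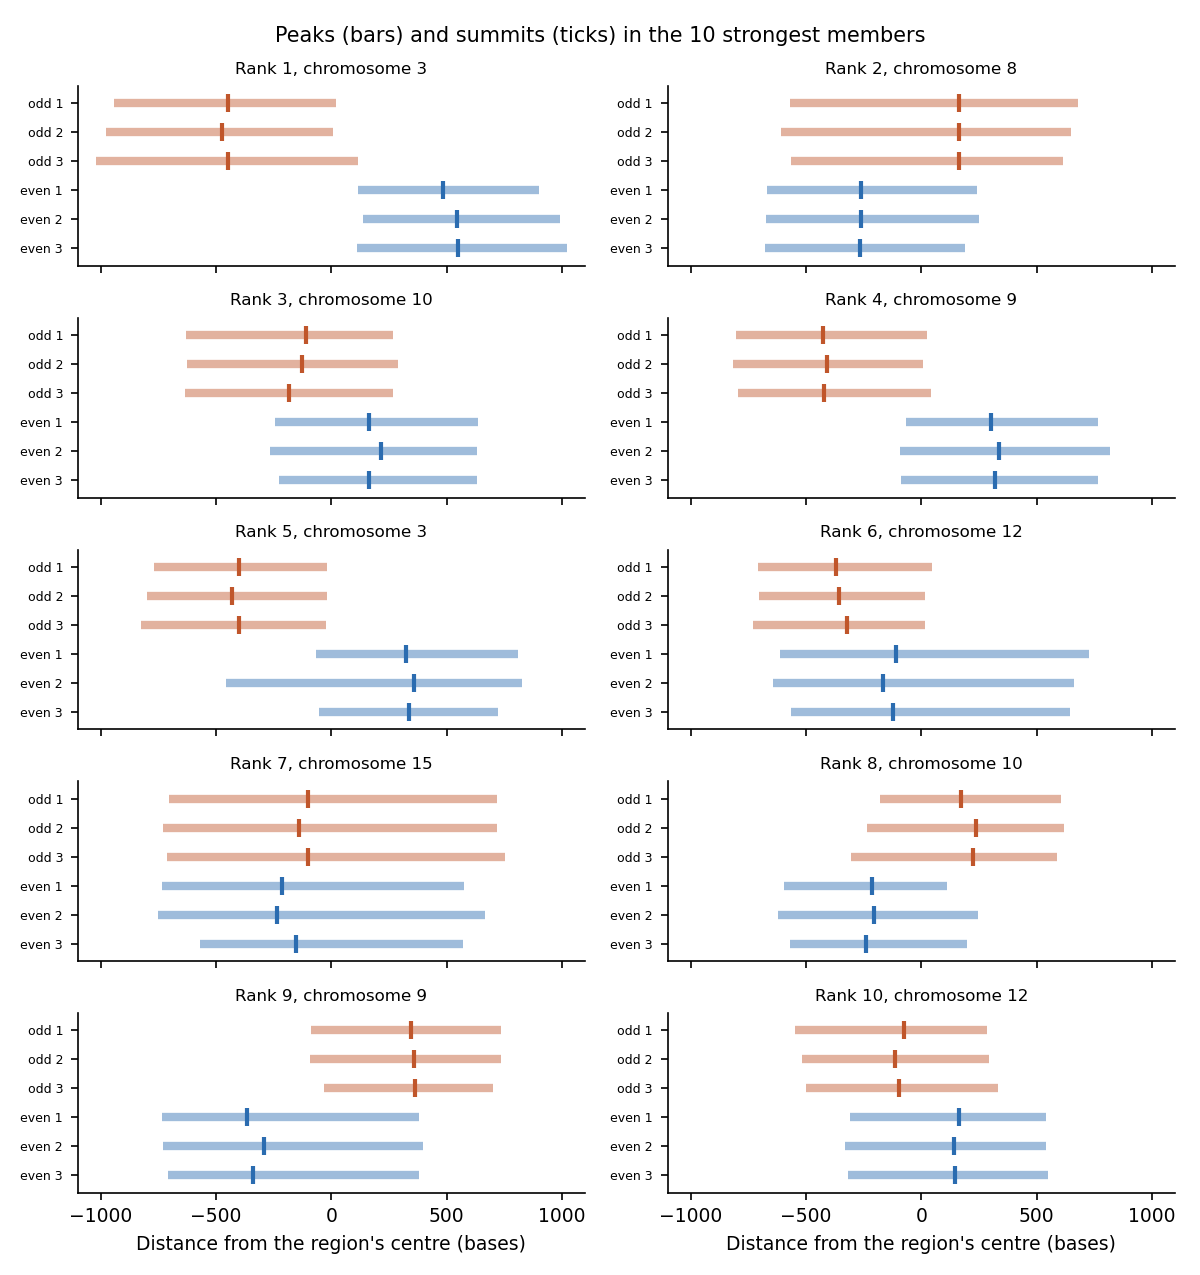
Strongest peak of each library (bar) and its summit (tick) in the top 10 regions by mean fold percentile, by distance from the region's centre in bases; odd libraries are orange and even libraries blue. Within each set the ticks line up to within 83 bases, and the sets stand 112 to 993 bases apart.

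Of the 5 widest separations, some rested on summits that moved between libraries of a set. At chr2:3298004-3300450 the medians were 1826 bases apart, but the odd summits ranged over 752 bases and the even summits over 1102, and the fold was at most 10.9 in any library. At chr20:60358409-60360829 the separation was 1720 bases and the even summits ranged over 1799, since the summit of even library 1, at 60358796, lay near the odd summits. That separation did not exceed the spread of its own libraries. By contrast, chr16:32296384-32298901 had summits 1746 bases apart with ranges of 13 and 2 bases. Its fold was 18.1, 27.5 and 26.2 in odd and 44.4, 77.2 and 38.1 in even libraries. The other 2, chr5:61447855-61450249 and chr10:100077751-100079931, joined a strong odd peak with a mean fold of 90.2 and 59.7 to weak even peaks with 5.86 and 6.55, each present in 2 even lists.

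Among regions with a peak in all 6 lists, the 3 most unequal in each direction had a mean percentile of 92.3 to 99.1 with the stronger set and 7.24 to 19.6 with the weaker. At chr2:132246155-132247012 the fold was 95.2, 182 and 102 in odd and 6.60, 4.24 and 4.55 in even libraries, with summits 279 bases apart. The odd set was also far the stronger at chr6:5423780-5424696, with mean folds of 133 ± 67.9 and 5.33 ± 0.594, and at chr2:158561360-158562381, with 86.8 ± 46.2 and 5.19 ± 0.909 (SD, n = 3). In the other direction, chr1:110523560-110524775 had a fold of 3.43, 5.23 and 5.14 in odd and 50.1, 47.2 and 40.5 in even libraries, with summits 629 bases apart. The even set was likewise stronger at chr15:74499188-74500022, with 5.58 ± 0.374 in odd and 62.9 ± 6.68 in even libraries, and at chr3:12209603-12210689, with 6.42 ± 2.54 and 96.4 ± 26.1. In these 6 regions the folds of the odd and even libraries did not overlap; they were picked for that inequality.

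The regions nearest to the threshold were the following. Inside it were chr16:26726163-26727212, at 100.5 bases, and chr2:27275512-27276236 and chr8:86976531-86977449, at 101 bases each. Outside it were chr7:34427744-34428413, chr17:47632020-47632398 and chr17:47992260-47992962, each at 100 bases. In these 6 regions the summits of a set ranged over 17 to 89 bases, and 3 of them lacked a peak in 1 list. The 3 inside were 725 to 1050 bases long and the 3 outside 379 to 703.

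The displaced regions were spread over all 23 chromosomes used. Relative to all merged regions on a chromosome they were most frequent on chromosome 20, with 115 regions or 12.1 per 1000, and least frequent on chromosome X, with 54 or 4.39 per 1000. The figure over all chromosomes was 7.66 per 1000, and for coinciding regions 3.63 per 1000. Chromosomes 10 and 19 followed chromosome 20 with 9.73 and 9.66, and chromosomes 4 and 18 were low with 5.12 and 5.39. Coinciding regions were most frequent on chromosome 21, with 5.87 per 1000. They too were above their figure over all chromosomes on chromosome 20, with 4.64, and below it on chromosome X, with 2.68. The displaced share of the shared regions ran from 58.2% on chromosome 18 to 76.6% on chromosome 16. Copy number along the genome was not analysed here.

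Distances along the chromosome were set beside those of the coinciding regions, which were likewise chosen to hold no lacZ peak. The gap from a displaced region to the next on the same chromosome had a median of 601240 bases and was at most 10 kb in 34 of 2720 cases. Among coinciding regions, which are fewer, it was at most 10 kb in 5 of 1276 cases. The nearest lacZ peak was a median of 9209 bases away, against 8746 bases for coinciding regions. A lacZ peak lay within 1000 bases of 188 displaced regions (6.85%) and of 84 coinciding regions (6.47%).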

How the data were processed

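Peak lists of 3 lacZ, 3 odd and 3 even ChIRP-seq libraries were used. The submitters' processing notes name FastQC, Bowtie2 and the hg19 build. For the peak caller, settings and control: not given in the sources used here. Each deposited list holds 1 library, with positions in bases, the pileup as a signal (coverage at the summit), −log10 of the p-value and q-value, and the fold enrichment as a ratio to a background, per the file headers. The −log10 values were not used for results.

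Peaks on chromosomes 1 to 22 and X sharing at least 1 base were merged (Python 3.11.15, pandas 2.3.3), and the rule was applied. Percentiles of fold were ranked among all peaks of a list on these chromosomes. Libraries were compared by exact permutation tests with Benjamini-Hochberg adjustment over 4 tests. The merging was tested on simulated data.

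The regions and alternatives were chosen with earlier results of these data known. Named were, among regions with all 6 lists, the 20 strongest by mean percentile and the 3 most unequal each way, and, among all, the 5 widest and 3 on each side of the threshold. Gene tables at hand follow another build, so no genes or sequences were used here.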

Additional observations from a re-analysis of the deposited data

How the results depend on the processing

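The result on the highest 10% by fold, and its alternatives and the omission of single libraries, were chosen after seeing the data; the other alternatives were planned. The number of regions was 1646 with 6 of 6 probe lists, 923 with peaks at or above the median fold, 325 with lists of equal length, and 3261 to 4432 without each replicate number, where 3 of 4 lists sufficed. The 923 and 325 use fewer peaks by construction. The median separation was 276 and 377 bases with thresholds of 50 and 200, 344 with 6 of 6 lists, 379.5 above the median fold, 424 at equal length, 295 with an overlap of at least 50 bases, and 277.5 to 288.75 without a replicate. In the same order the share with the odd summit lower was 48.9%, 49.7%, 49.3%, 49.3%, 49.2% and 48.99%, and 47.8% to 49.3% without a replicate. Strongest peaks sharing no base made up 20.7% at a threshold of 200 bases, 10.02% at equal length, 10.7% with an overlap of at least 50 bases and 10.03% to 10.8% without a replicate.

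The odd minus even percentile reversed to −0.908 above the median fold and −1.21 at equal length, and ran from −0.694 to 2.12 without a replicate (exact p from 0.667 to 1, where 0.333 is the smallest). The displaced minus coinciding percentile reversed to 0.931 at 200 bases (exact p = 0.625). The share in the highest 10% kept its direction in all alternatives run, but missed 0.05 with 6 of 6 lists (−13.3 points, exact p = 0.0938), above the median fold (−10.9, exact p = 0.25) and at equal length (−12.5, exact p = 0.156), and was −15.9 to −10.9 without a replicate number or a single library, where exact tests cannot reach 0.05. The cause was not tested. With a replicate block the 3 differences were 1.01 (exact p = 1), −4.63 (exact p = 0.25) and −13.8 (exact p = 0.25, the smallest of 3 pairs). The main tests did not pair libraries by number, though each library correlated best with its own number. Same-numbered deviations of log2 fold correlated at 0.125, 0.0916 and 0.181, and differently numbered ones at −0.124 to 0.00318. Whether libraries of the same number share a batch was not tested.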
